A study of Homo sapiens with 2 samples.

Results

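The genes described are the tropomyosins TPM1, TPM2, TPM3 and TPM4, the cytoplasmic actins ACTB and ACTG1, and the actin-binding proteins GSN, FSCN1, PLS3 and CFL1, on arrays of retinoblastoma cells with and without Ep-CAM siRNA. Every probe for a transcript whose gene name in the array files was one of these 10 was taken, which gave 33 probes on 42 spots. The arrays carried 30982 distinct gene names in all, on 41000 probes. Y79 is an established human retinoblastoma line that grows in suspension. RNA from siRNA-untreated Y79 cells was hybridized to 1 one-color array, and RNA from Y79 cells collected 48 h after Ep-CAM siRNA treatment to another. By the paper alone, both cultures had been exposed to the demethylating agent AZC beforehand. The comparison asks which transcripts differ once Ep-CAM is silenced, and with 1 array per group it has no replicates, no test and no p-value.

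Actin monomers assemble into filaments that carry cell shape, division and adhesion. Tropomyosins lie along the filament as coiled coils and decide which other proteins reach it, and each tropomyosin gene makes several forms through alternative first and last exons. Cofilin and gelsolin cut filaments, whereas fascin and plastin tie them into bundles, and Ep-CAM itself is a membrane adhesion protein that is linked to the actin cytoskeleton.

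Each value below is the processed signal of a probe, which is the brightness of its spot after background subtraction, in arbitrary units. The log2 ratio is siRNA-treated over siRNA-untreated after each array was divided by its median over transcript probes. Of each pair of signals the first is that of siRNA-untreated and the second that of siRNA-treated cells. A probe is called dim where the scanner software did not mark it as well above background, and a ratio with 1 dim side is a bound. A probe dim or saturated on both arrays was given no ratio. Signals of different probes are not set against each other, because probes differ in how they bind. Coordinates of probes are those of the array design on build hg17, and no gene annotation of that build was used.

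The targeted transcript comes first. The single Ep-CAM probe, listed as TACSTD1, read 15.6 and 12 and was dim on both arrays. The silencing itself is therefore not visible in these data, and every member value is a difference between arrays labelled by treatment.

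The labelled cell type was checked against photoreceptor-lineage genes, which retinoblastoma cells usually express. Of 10 such genes, RBP3 and GNAT2 had no probe under their names, and RCVRN, NRL, NEUROD1 and PDE6H were dim on both arrays. CRX, a transcription factor of developing photoreceptors, read 86.8 and 68.7, a log2 ratio of -0.37. OTX2 had -0.47, ARR3 -0.21 and GNGT2 -0.40, and the summed scaled level of the list went from 6.50 to 5.34. The check of the label thus rests on 4 measured genes of the lineage, all lower after siRNA treatment and none by 2-fold. Probes for other cell types were measured as well, so the check does not single out the labelled cell type.

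Genes of other cell types were read in the same way, because several members are abundant in fibroblasts and muscle. Among fibroblast genes, COL1A1, COL1A2, COL3A1, DCN and THY1 were measured and LUM was dim on both arrays, with a median of 0.01 and summed scaled levels of 29.0 and 29.7. THY1, which neurons also express, read 1020 and 1163, a log2 ratio of 0.16, while DCN (-0.55) and COL3A1 (-0.51) read lower after siRNA treatment. The fibroblast sum is weighted toward the THY1 probe, whose brightness against other probes is no measure of abundance. The sums of all lists, that of the photoreceptor genes too, include probes dim on both arrays. The muscle genes ACTA1, ACTA2, MYH11, DES, MYL1 and CKM had a median of -0.11 and sums of 6.54 and 5.53, and went both ways, with ACTA2 at -0.95, CKM at -0.66 and MYH11 at 0.59. Of the glial genes, GLUL was dim on both arrays, and GFAP, RLBP1 and AQP4 had a median of 0.14. The epithelial genes KRT8, KRT18, KRT19 and CDH1 had a median of 0.04, and of the leukocyte genes PTPRC had a log2 ratio of 0.02, CD14 had 0.11 and CD3D was dim after siRNA treatment. Of the 32 marker genes with a probe, 25 were measured and 1 had a bound, and none of these passed a 2-fold difference, and their part in the member values was not tested.

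Of the 33 member probes, 25 were measured on both arrays and 1 had a bound. A further 6 were dim on both arrays and 1 was saturated on both. With a 2-fold difference as the threshold, a log2 ratio of at least 1 or of -1 or less, 3 of the 26 probes with a ratio were higher after siRNA treatment (11.5%), against 1.27% of all 29345 probes with a ratio. One probe was lower (3.85%), against 0.927% of all. The higher probes were 1 each of TPM1, FSCN1 and PLS3, and the lower one was that of GSN. The paper lists all of these genes as changed after the knockdown, in the same directions. Members were chosen with such earlier results known, so their higher shares are no test of the group. At the looser thresholds in the processing text of the series, 4 member probes had a ratio above 1.5 and 3 a ratio below 0.55, against 4.01% and 1.69% of all probes. The former added a TPM3 probe, A_32_P186889, to the 3 higher ones, and the latter were GSN and both CFL1 probes.

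**Figure D1:**
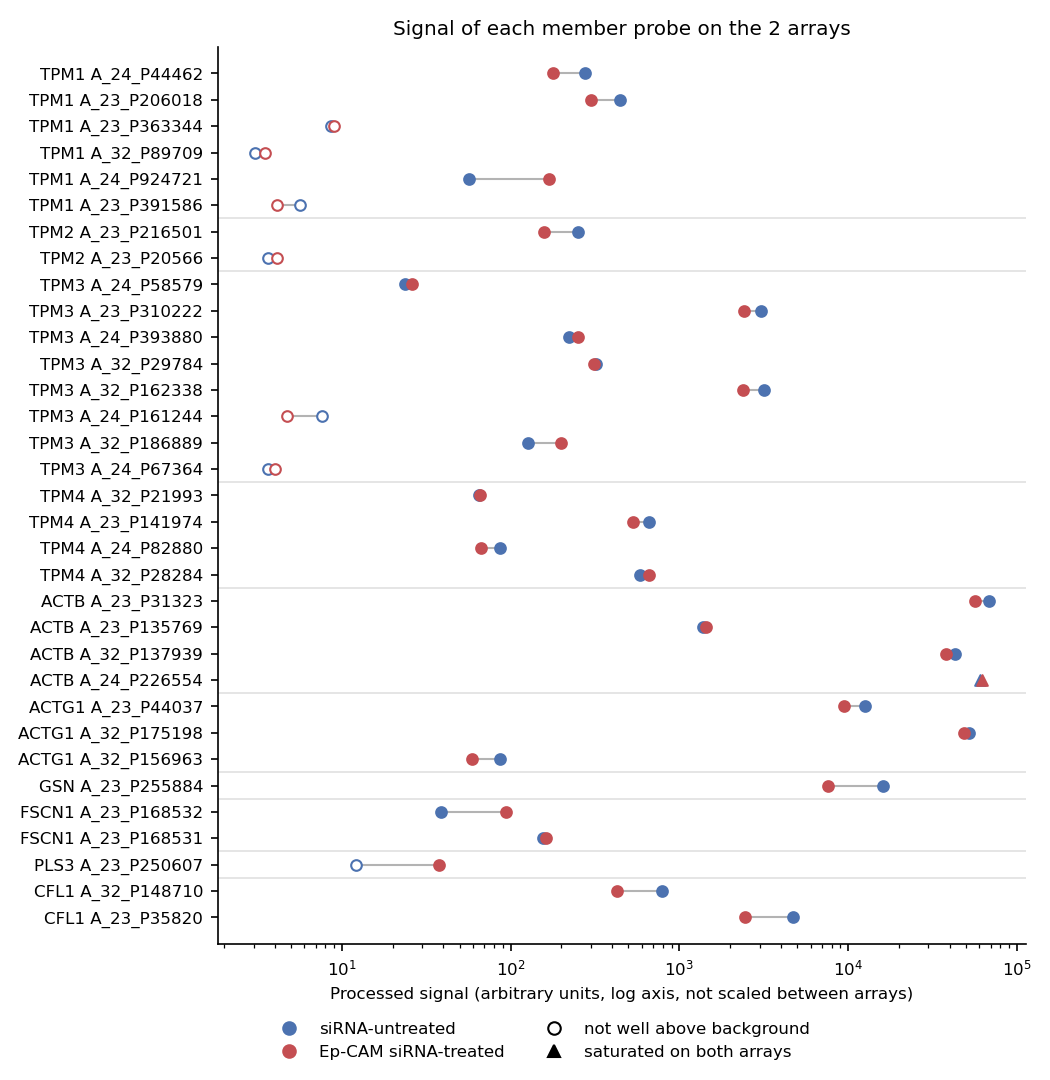
Processed signal of each of the 33 member probes (arbitrary units, log axis) in siRNA-untreated (blue) and Ep-CAM siRNA-treated (red) cells, 1 array each; hollow points were not well above background and triangles were saturated. TPM1 A_24_P924721, FSCN1 A_23_P168532 and PLS3 move right after siRNA treatment, while GSN and both CFL1 probes move left.

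Position on the array has to be read beside these counts. Probes of all genes that lay in the corner from row 355 to 532 and column 43 to 85 passed 2-fold more often, with 5.34% of 4982 higher and 2.17% lower. Outside it the shares were 0.435% and 0.673% of 24363. Of the 6 member probes with a ratio in the corner, 2 were higher (TPM1 and PLS3) and 1 was lower (GSN). Of the 20 outside it, 1 was higher (FSCN1) and 0 were lower. Of the 4 member calls, then, 3 came from the corner, where calls of any gene were more frequent than outside it.

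**Figure D2:**
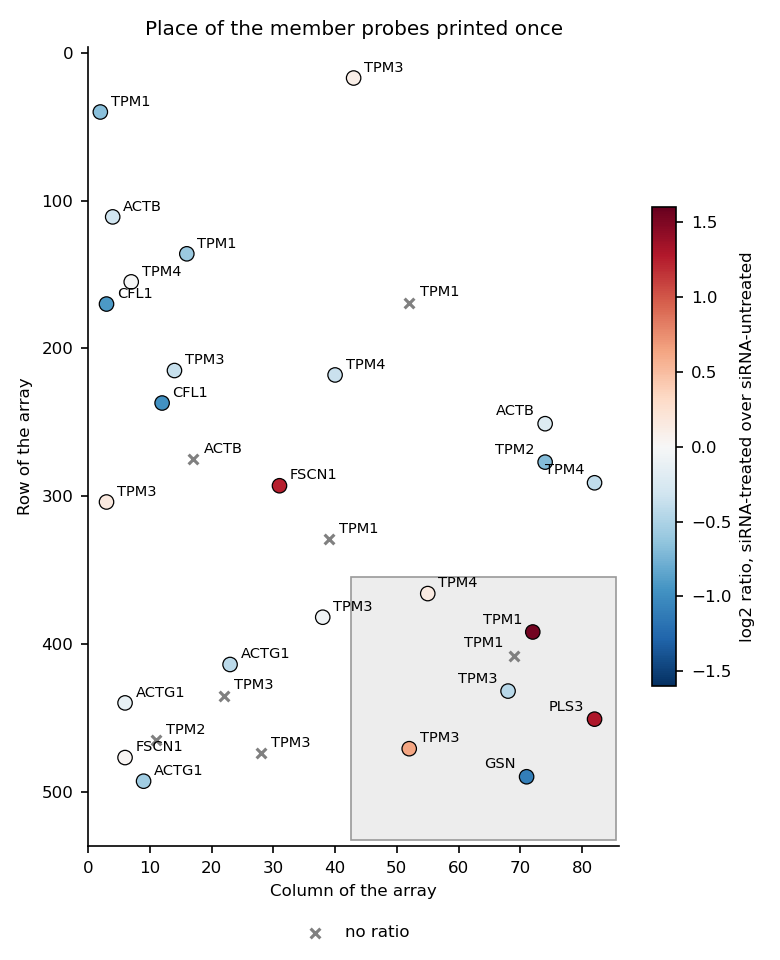
Row and column of each member probe printed at 1 spot, colored by its log2 ratio (siRNA-treated over siRNA-untreated; crosses have no ratio), with the corner from row 355 and column 43 shaded. The shaded corner holds 3 of the 4 probes past 2-fold (TPM1, PLS3 and GSN), and FSCN1 A_23_P168532 lies outside it at row 293 and column 31.

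Brightness also has to be read beside them. Over all probes measured on both arrays, the median log2 ratio was -0.01 at mean signals below 100 and -0.02 from 100 to 1000. It was -0.21 from 1000 to 10000 and -0.29 above 10000, where 89.8% of 384 probes lay below 0. The member medians in the same bins were 0.05 (6 probes), -0.21 (10), -0.40 (4) and -0.32 (5). Actin transcripts are among the most abundant of a cell, and 5 of the 25 measured member probes, 4 of them for ACTB or ACTG1, lie above 10000, where most probes of any gene read lower after siRNA treatment.

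Over the 25 measured member probes the median log2 ratio was -0.32, with 17 below 0, against -0.03 over all 26975 measured probes, of which 55.2% lay below 0. Quantile normalization, which makes the brightness distributions of the arrays equal, brought the member median to -0.077 with 15 of 25 below 0. How much of the members' median comes from their brightness and how much from the treatment cannot be told apart on 1 array per group.

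**Figure D3:**
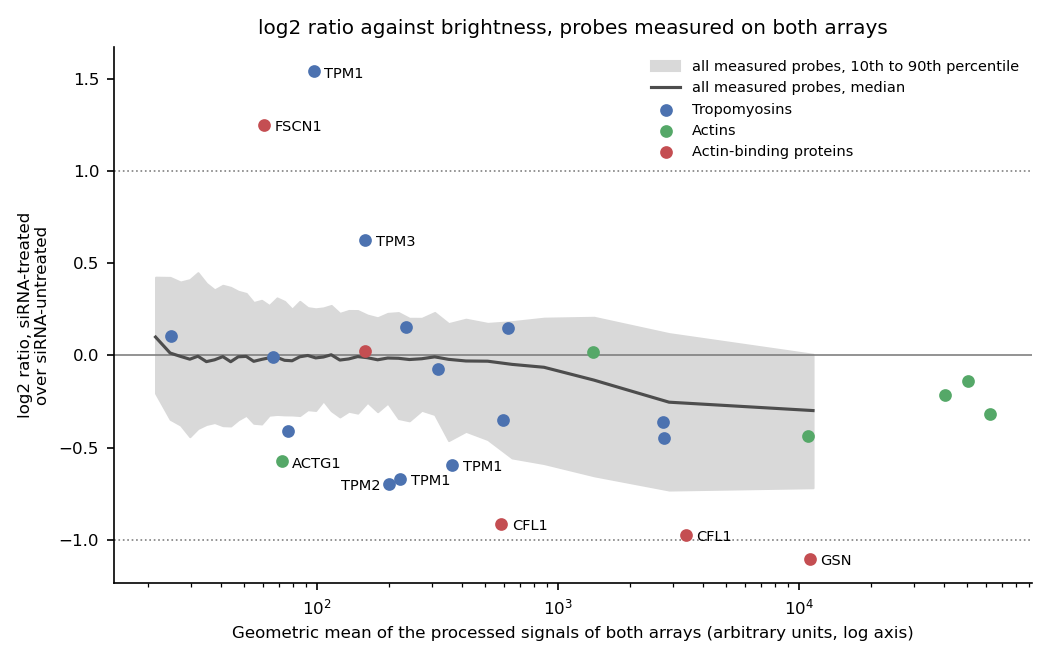
log2 ratio (siRNA-treated over siRNA-untreated) against the mean processed signal of both arrays (arbitrary units, log axis) for the 25 member probes measured on both arrays, over the running median and the 10th to 90th percentile of all measured probes. Above a signal of 10000 the median of all probes is -0.29, and all 5 member probes there lie below 0 (under quantile normalization 2 of them, ACTB A_32_P137939 and ACTG1 A_32_P175198, lie above 0).

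The tropomyosins differed most within TPM1, whose 6 probes lie along the gene on chromosome 15. A_24_P924721, at chr15:61127899-61127958, was designed on another TPM1 transcript record than the other measured probes and lies nearest the start of the gene. A_24_P44462, at chr15:61140494-61141494, lies 12535 bases further along the gene and spans an intron. Both are shown because they read the gene in opposite directions.
TPM1 A_24_P924721: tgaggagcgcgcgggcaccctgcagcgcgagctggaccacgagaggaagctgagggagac
TPM1 A_24_P44462: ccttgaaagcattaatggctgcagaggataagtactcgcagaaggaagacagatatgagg
The former is 70.0% G and C and the latter 45.0%.

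A_24_P924721 rose from 56.4 to 168, 2.91-fold, a log2 ratio of 1.54 with a scanner error of 0.23. A_24_P44462 fell from 277 to 178, a log2 ratio of -0.67. A_23_P206018, further toward the end of the gene at chr15:61150414-61150473, fell from 444 to 301, a log2 ratio of -0.59. The probe nearest the start of the gene thus read higher while those downstream of it read lower, and this held under each of the 4 other scalings. The call of A_24_P924721 was lost in the series value table (0.71) and with normexp background correction (0.58, or 0.90 refitted without 1 spot, a fit added after seeing the data). The 3 measured probes spanned 2.21 on the log2 scale, and of 595 genes with 3 measured probes 3 (0.504%) had a range at least as wide, against a median range of 0.40.

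The place of the TPM1 probes differed as well. A_24_P924721 lies at row 392 and column 72, inside the corner, where the 85 other measured spots within 5 rows and columns had a median of 0.16, 7 of them higher by 2-fold and 1 lower. A_24_P44462 and A_23_P206018 lie outside it, among spots with medians of -0.24 and -0.02. With the surrounding median subtracted, the TPM1 values were 1.38, -0.43 and -0.57, which does not bound an effect on a single spot. The other 3 TPM1 probes, A_23_P363344, A_32_P89709 and A_23_P391586, were dim on both arrays. No other TPM1 probe lies upstream of A_24_P44462, so a difference in that stretch of transcript and one in the spot cannot be told apart.

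TPM2 encodes beta-tropomyosin, a partner of TPM1 in muscle and in non-muscle filaments. Its measured probe, A_23_P216501 at chr9:35672088-35672147, fell from 250 to 158, a log2 ratio of -0.70 (scanner error 0.21), among 72 spots with a median of -0.03. Its other probe, A_23_P20566, was dim on both arrays. The probe reads a stretch that TPM4 shares in part, and the 2 genes' probes there are set side by side, with capitals for the bases that differ. Over 59 aligned bases 41 were identical and 18 differed.
TPM2 A_23_P216501: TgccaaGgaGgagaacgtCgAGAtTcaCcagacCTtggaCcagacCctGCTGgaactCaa
TPM4 A_23_P141974: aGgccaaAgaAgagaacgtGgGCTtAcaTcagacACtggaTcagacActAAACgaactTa

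TPM4 encodes a short tropomyosin of non-muscle cells, and its matching probe, A_23_P141974 at chr19:16073086-16073145, fell from 662 to 531, a log2 ratio of -0.35. Over this related stretch TPM2 and TPM4 both read lower after siRNA treatment, under every scaling tried. TPM4 A_24_P82880 fell from 86.4 to 66.5, a log2 ratio of -0.41. The remaining TPM4 probes, A_32_P21993 and A_32_P28284, overlap by 47 bases, of which 45 are identical. A_32_P21993 read 65.2 and 66.3, a log2 ratio of -0.01 that turns positive under 3 of the 4 other scalings, and A_32_P28284, in the corner, read 586 and 665, a log2 ratio of 0.15. Probes that share most of their bases thus differed by little more than the technical spread of 0.14, and by more under quantile normalization (-0.0023 and 0.24) and, in the other direction, with normexp (-0.077 and -0.46). That spread is the SD of the log2 ratio between repeated spots of a probe. The range over the 4 TPM4 probes was 0.56, and 40.2% of 97 genes with 4 measured probes had one at least as wide.

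TPM3 encodes tropomyosins of slow muscle and of most non-muscle cells, and had the most probes of the family, 8. A_23_P310222, at chr1:150954929-150956004, fell from 3052 to 2431, a log2 ratio of -0.36. A_24_P161244, which was designed on another TPM3 transcript record, was dim on both arrays. A_32_P162338, at chr1:150957639-150958501 and in the corner, fell from 3171 to 2384, a log2 ratio of -0.45 among spots with a median of -0.28. These bright TPM3 probes lie where probes of any gene read lower, and quantile normalization brought them to -0.09 and -0.17.

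The dimmer TPM3 probes did not fall with them. A_24_P393880 read 221 and 251, a log2 ratio of 0.15, and A_24_P58579 read 23.7 and 26.1, a log2 ratio of 0.10 with a scanner error of 0.41. A_32_P29784 read 323 and 314, a log2 ratio of -0.07, and the array file places it on another chromosome than the rest of TPM3, at chr2:231262278-231262337. A_32_P186889, in the corner at row 471 and column 52, rose from 127 to 200, a log2 ratio of 0.63, among spots whose median was itself 0.32. A_24_P67364 was dim on both arrays. Of 6 measured TPM3 probes 3 lay above 0 and 3 below, over a range of 1.07. TPM3 as a gene thus had no single direction on these arrays, but the split depended on the processing. With normexp A_24_P393880 was -0.36 and A_32_P29784 -0.49, or 0.04 and -0.02 refitted. A_24_P58579 was -0.07 in the series value table, 0.14 with normexp and -0.03 refitted.

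**Figure D4:**
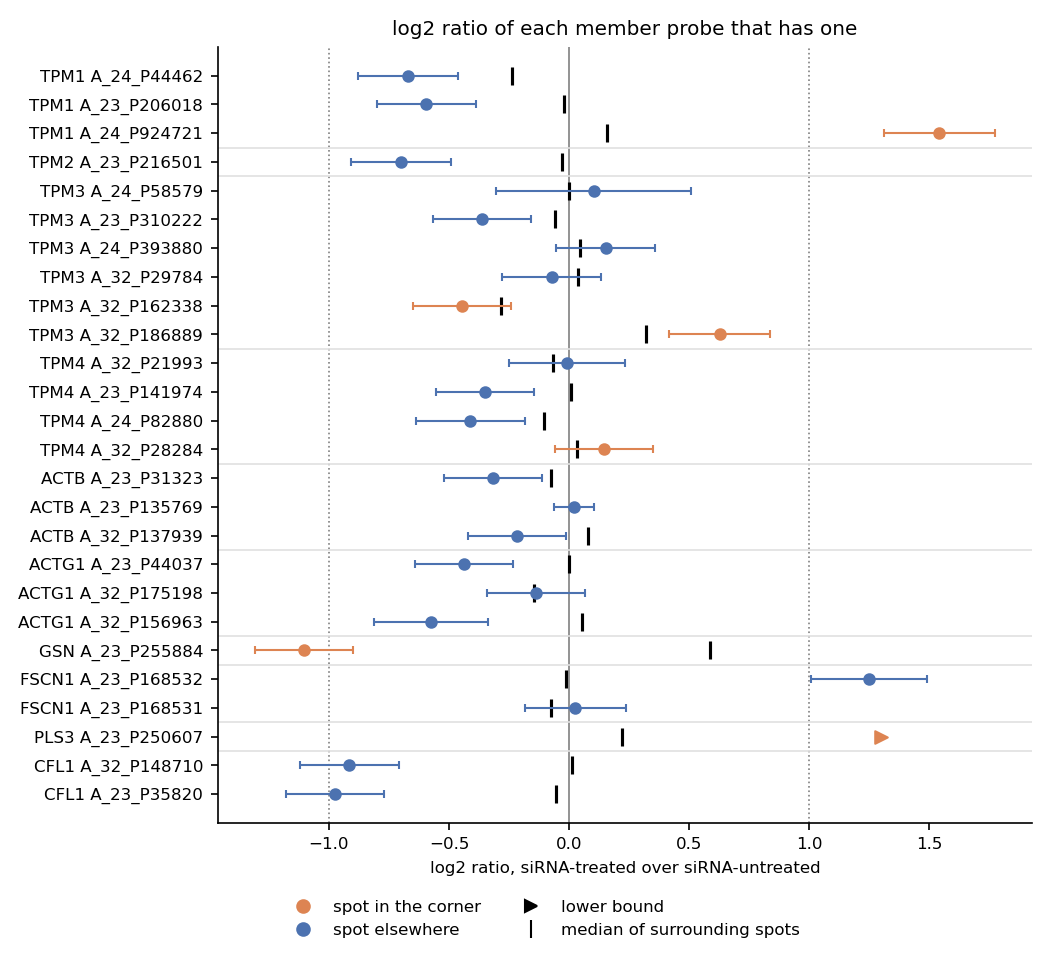
log2 ratio (siRNA-treated over siRNA-untreated) of the 26 member probes with one; bars are the scanner error of the ratio, or the SD over the repeated spots for ACTB A_23_P135769, the PLS3 arrow is a lower bound, and black ticks are the median of the surrounding spots. The TPM1 probes split between 1.54 and -0.67, the CFL1 probes lie together at -0.97 and -0.91, and GSN lies at -1.10 among spots with a median of 0.59.

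The cytoplasmic actins ACTB and ACTG1 form the filaments of non-muscle cells and are common reference transcripts. ACTB A_23_P31323 read 68726 and 56442, a log2 ratio of -0.32, and A_32_P137939 read 42931 and 37849, a log2 ratio of -0.22 that flips to 0.03 under quantile normalization. A_24_P226554 was saturated on both arrays, at 60478 and 62222, and can show no difference. The bright ACTB probes thus lay close to the median of -0.29 of all probes above 10000.

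ACTB A_23_P135769 was printed at 10 spots spread over the array and gives the repeat measurement that the other members lack. Over the 8 spots not marked as outliers, signals ranged from 1219 to 1509 before and from 1357 to 1505 after siRNA treatment. The log2 ratios ran from -0.10 to 0.15, with a mean of 0.02 and a technical SD of 0.084, 4 spots above 0 and 4 below. The signals of the 2 arrays overlapped, and the mean log2 ratio was smaller than the spread between spots, though it was 0.20 under quantile normalization and -0.59 with normexp background correction, both beyond that spread. Normexp moved the median of all measured probes to -0.20, and refitted without 1 spot it gave 0.02 for this ACTB probe. The range over the 3 measured ACTB probes was 0.34, and 61.2% of 595 genes with 3 measured probes had one at least as wide.

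ACTG1 A_23_P44037 fell from 12553 to 9504, a log2 ratio of -0.44, or -0.077 under quantile normalization. A_32_P175198, at chr17:77091609-77091659, read 52056 and 48499, a log2 ratio of -0.14 that flips to 0.14 under quantile normalization and lies close to the median of -0.15 around its spot. A_32_P156963, which lies 17 bases from A_23_P44037 in the genome, fell from 86.3 to 59.4, a log2 ratio of -0.57. Its value was -0.57 under quantile normalization too, but -0.19 in the series value table and -0.30 with normexp background correction. The range over the ACTG1 probes was 0.44, and 44.9% of genes with as many measured probes had one at least as wide.

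Cofilin, encoded by CFL1, binds and severs aging filaments and returns monomers to the pool. Its probes lie 302 bases apart on chromosome 11 and are shown because they gave nearly the same value.
CFL1 A_23_P35820: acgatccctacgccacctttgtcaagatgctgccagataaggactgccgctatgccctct
CFL1 A_32_P148710: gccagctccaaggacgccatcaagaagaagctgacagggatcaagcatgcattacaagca

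A_23_P35820, at chr11:65380040-65380099, fell from 4723 to 2463, a log2 ratio of -0.97 (scanner error 0.20). A_32_P148710, at chr11:65379484-65379737, fell from 791 to 430, a log2 ratio of -0.91 (scanner error 0.20). Both lie outside the corner, at row 237 and column 12 and at row 170 and column 3, among spots with medians of -0.06 and 0.01. CFL1 was short of 2-fold at both probes, but the call depended on the processing. Under quantile normalization the values were -0.67 and -0.82, in the series value table A_23_P35820 passed 2-fold at -1.04, and with normexp both probes passed, at -1.65 and -1.35. Refitted without 1 spot, normexp gave -1.02 and -0.87. The probes differed by 0.059, and 85% of 3236 genes with 2 measured probes differed by at least as much. Both values are low in the distribution of all measured probes, with 0.897% and 1.22% of probes at or below them. Chosen after its values were seen, CFL1 was also set against every gene with at least 2 measured probes. Of 3962 such genes 3, CFL1 included, had no measured probe above its -0.91. Gene and cut both came from those values under the median scaling, so this count is a description and no test.

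Gelsolin, encoded by GSN, severs filaments and caps their growing ends, and its single probe was the member probe past 2-fold in the lower direction.
GSN A_23_P255884: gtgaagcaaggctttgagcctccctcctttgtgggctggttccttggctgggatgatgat

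GSN A_23_P255884, at chr9:121174325-121174384, fell from 16078 to 7660, 2.15-fold lower, a log2 ratio of -1.10 (scanner error 0.20). It lies at row 490 and column 71 in the corner, where the 68 other measured spots nearby had a median of 0.59, with 11 higher by 2-fold and 1 lower. GSN therefore moved against its surroundings, and with their median subtracted it was -1.69, which does not bound an effect on a single spot. It is also bright, and quantile normalization brought it to -0.77, short of 2-fold. The -0.97 of the series value table and the -0.93 of the refitted normexp were short of it too. Normexp as first fitted gave GSN -1.58, past 2-fold. Before any correction, the mean brightness of its pixels was 11862 and 6368, so the fall was present in the raw image, though short of 2-fold.

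Fascin, encoded by FSCN1, packs filaments into the tight parallel bundles of filopodia. Its probes are shown because they adjoin on the transcript, with 1 base between the end of A_23_P168532 and the start of A_23_P168531 in the genome, and yet gave different values.
FSCN1 A_23_P168532: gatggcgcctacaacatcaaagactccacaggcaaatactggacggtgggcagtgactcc
FSCN1 A_23_P168531: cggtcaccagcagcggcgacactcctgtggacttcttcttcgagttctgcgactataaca

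FSCN1 A_23_P168532, at chr7:5416881-5418181 and across an intron, rose from 38.8 to 94.4, 2.38-fold higher, a log2 ratio of 1.25 (scanner error 0.24). It lies outside the corner, and of the 84 measured spots around it, with a median of -0.01, 0 were higher by 2-fold. FSCN1 A_23_P168531, at chr7:5418183-5418242, read 156 and 162, a log2 ratio of 0.03 (scanner error 0.21). The neighbouring stretches of fascin transcript thus differed by 1.22 on the log2 scale, and of 3236 genes with 2 measured probes 67 (2.07%) differed by at least as much, against a median of 0.22. Both probes have 55% G and C. The mean pixel brightness of A_23_P168532 was 116 and 182 at local backgrounds of 39.5 and 38.5, so it was brighter before background subtraction too, though by less than 2-fold. The processed signals of 38.8 and 94.4 lie below these brightnesses by more than the local backgrounds. Without that subtraction, in the series value table, its log2 ratio was 0.56, and with normexp it was 0.46, or 0.67 refitted, all short of 2-fold. The cause of the rise was not tested.

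Plastin 3, encoded by PLS3, crosslinks filaments in non-hematopoietic cells. Its single probe, A_23_P250607 at chrX:114707296-114707355, read 12.1 in siRNA-untreated cells, where it was dim, and 37.6 in siRNA-treated cells, at least 2.46-fold higher. The scanner error of the log2 ratio of these signals was 0.61, which the bound does not include. The probe lies at row 451 and column 82 in the corner, and of 62 measured spots around it, with a median of 0.22, 14 were higher by 2-fold and 1 was lower. The call was lost in the series value table (0.45) and with normexp (0.51, or 0.45 refitted). PLS3 was thus called among spots of which more than in any other member's surroundings were called in the same direction.

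The wider machinery was read from 87 further genes of the actin cytoskeleton in 9 lists, each gene by its probe with the highest mean signal. Of these, 70 were measured on both arrays, 9 had a bound and 8 were dim on both arrays. One gene was higher by 2-fold and 1 was lower, counts to be read against the 1.27% and 0.927% of all probes. The median over the measured genes was -0.10 with 46 below 0, against -0.02 over the 22056 genes measured in the same way, of which 55% lay below 0. Under quantile normalization the median was -0.06 with 41 below 0, against 0.0034 over all measured probes.

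**Figure D5:**
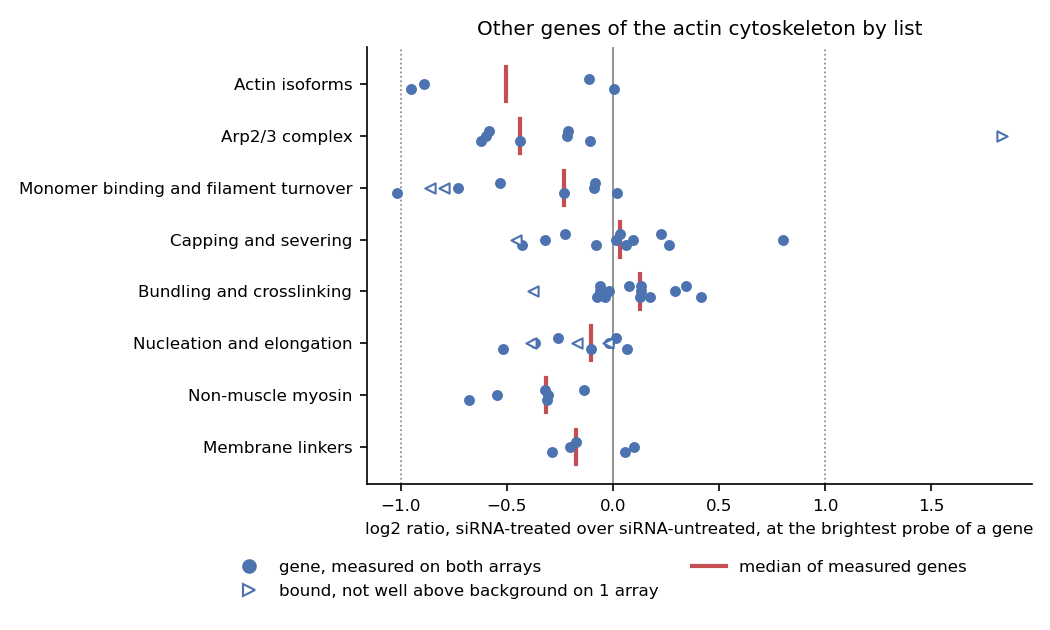
log2 ratio (siRNA-treated over siRNA-untreated) of other genes of the actin cytoskeleton at their brightest probe, in 8 lists, with genes dim on both arrays left out, open triangles for bounds and red bars for the median of measured genes. The Arp2/3 complex has a median of -0.44 with all 7 measured genes below 0 (6 of 7 under quantile normalization), and the bundling and crosslinking list has 0.13.

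Among the other actin isoforms, which serve muscle, the median was -0.50 over 4 genes, or -0.33 under quantile normalization. ACTA2 fell from 101 to 53.5, a log2 ratio of -0.95. ACTC1 fell from 12508 to 6911, a log2 ratio of -0.89 at a probe in the corner, or -0.55 under quantile normalization, while its other measured probe had 0.07. ACTA1 had 0.01, so the isoforms did not move together.

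The Arp2/3 complex starts new branches on filaments, and its 7 measured subunits all lay below 0, with a median of -0.44, or -0.21 with 6 of 7 below 0 under quantile normalization. ACTR3 had -0.62 at a probe in the corner, with its other probes between -0.76 and 0.08, and ARPC5L had -0.60, or -0.44 and -0.28 for these brightest probes under quantile normalization. ARPC3 went the other way, from 5.07, where it was dim, to 54.6, at least 3.56-fold higher, by its single probe in the corner. The scanner error of the log2 ratio of these signals was 1.21, which the bound does not include. Among spots around that probe the median was -0.01. At their brightest probes the measured subunits thus read lower after siRNA treatment, except ARPC1A under quantile normalization (0.10).

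Monomer-binding and turnover genes, which work beside cofilin, had a median of -0.23 with 6 of 7 below 0. TMSB4X, which encodes the monomer-sequestering thymosin beta 4, fell from 632 to 320, a log2 ratio of -1.02 that crosses 2-fold under the median scalings and not under 3 of the 4 other scalings. PFN1, which encodes profilin, had -0.73 at its brightest probe, or -0.40 under quantile normalization, and -0.69 at the other. Of the rest of the list, CAP2 and PFN2 were dim after siRNA treatment and at least 1.81-fold and 1.74-fold lower, and WDR1 had -0.53, with 0.31 at its other measured probe. Others lay near 0, with CFL2, a second cofilin gene, at -0.09, CAP1 at -0.08 (0.07 under quantile normalization) and DSTN at 0.02, and TMSB10 was dim on both arrays.

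The capping and severing list had a median of 0.03 over 11 genes, with VIL1 at 0.80 by a probe in the corner and at -0.08 by its other probe, and the capping protein gene CAPZB at -0.43, or -0.11 under quantile normalization. The bundling and crosslinking list, which holds the relatives of FSCN1 and PLS3, had a median of 0.13 over 13 genes, with CNN2 at 0.42 and FSCN3, in the corner, at 0.35. The PLS3 relative PLS1 was dim on both arrays, and LCP1 read 194 and 210. The rise of single FSCN1 and PLS3 probes therefore had no counterpart past 2-fold among the related genes.

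Nucleation and elongation factors had a median of -0.10, which flips to 0.01 under quantile normalization, with VASP at -0.37 and WASF2 at -0.52 by a probe in the corner, or -0.24 under quantile normalization. The other WASF2 probe had -0.04. Non-muscle myosin genes, which pull on the filaments, had a median of -0.31. At their brightest probes all 6 lay below 0 under every scaling tried, led by MYL12A (-0.68, in the corner) and MYL6 (-0.55, or -0.27 under quantile normalization). Of their other measured probes, that of MYH9 had 0.03, and those of MYL6 and MYL12B had -0.52 and -0.58. Linkers of the membrane to actin had a median of -0.17, with RDX at -0.28 and MSN, in the corner, at -0.20. No difference between lists was tested.

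Serum response factor switches on many actin and tropomyosin genes through the CArG box, a motif of CC, then 6 bases of A or T, then GG, so the members' promoters were searched for it on both strands. RefSeq promoter windows on GRCh38.p14, from 250 bases before to 50 after the start, were found for 8 of the 10 genes, 18 windows in all, and not for ACTB and FSCN1. The box was present in 2 of them, 1 of ACTG1 and 1 of TPM4, and in 454 of all 35116 windows (1.29%). It is shown in capitals with 20 bases on each side, read along the gene's strand. In ACTG1 it begins 94 bases before the start, in chr17:81512864-81512913 on the minus strand, and in TPM4 173 bases before the start, in chr19:16067345-16067394 on the plus strand.
ACTG1: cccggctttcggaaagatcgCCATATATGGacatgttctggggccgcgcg
TPM4: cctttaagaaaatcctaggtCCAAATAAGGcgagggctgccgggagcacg
The windows of CFL1 and GSN did not hold the motif, which says only that these letters are absent there.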

How the data were processed

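The deposited scanner files hold spot intensity values in arbitrary units, made by the authors in Agilent Feature Extraction (version 9.5.3.1 in the file headers, another in the labels) by background subtraction and detrending within each array. The deposited value table of the series holds intensity without background subtraction and was used as an alternative. Spots marked as outliers on either array were left out on both, signals were scaled to the 50th percentile of the non-control spots of their array, the scaled floor was 0.01, and repeated spots were averaged as log2. Repeated spots counted as well above background if 50% or more were. In a bound, the dim side was set to the lowest signal well above background (14.9 untreated, 17.5 siRNA-treated) where that was higher. Surrounding spots are those within 5 rows and 5 columns. The scanner error combines the processed signal errors of both arrays, and the technical SD of 0.14 is over 200 probes with repeated spots. Near copies were sought among all probes at 80% identity over at least 40 bases.

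Members and lists were chosen with earlier results of these data known. Named were all members, Ep-CAM, every marker gene, and from each pathway list the genes past 2-fold and the 2 measured genes with the largest absolute log2 ratio. The values of 1 pathway list and 1 marker gene, and 1 pair of probe sequences, are not reported here. Also named, after their values were seen, were ACTA1, PLS1, LCP1, CFL2, DSTN, CAP1, CAP2, PFN2, WDR1, TMSB10 and ARPC1A. The brightness bins, the printed probe sequences and the count of genes at or below CFL1 were chosen after the values were seen too. The corner comes from earlier work, where it was set after positions of changed probes had been seen.

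Alternatives were 4 scalings (75th percentile, quantile, none, and a median over probes measured on both arrays), a normexp background model (offset 50), the series value table, a floor of 0.1, outlier spots kept, the local median subtracted, the corner left out, other filters on dim probes, ratios of 1.5 and 0.55, and gene means. Calls were tested on simulated data, with changes larger than those of the called members and no effect of position. The changed probes were brighter than the higher member probes, so that test does not show whether the member calls hold. Python 3.11.15, numpy 2.4.6, pandas 2.3.3, matplotlib 3.10.9, R 4.3.3 and limma 3.58.1 were used. Precision is limited by the number of arrays, and no paired analysis was possible because each group has 1 array.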

Additional observations from a re-analysis of the deposited data

How the results depend on the processing

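The count of 3 higher member probes was the same under the 4 other scalings, with the floor of 0.1, with outlier spots kept, with the local median subtracted and without a filter on dim probes, and was 2 when only probes well above background on both arrays were called. It was 0 with normexp background correction, 0 with the series value table and 1 without the corner. Of all probes, 372 of 29345 were higher in the main setting, 89 of 29345 with the value table and 109 of 24364 without the corner. The count of 1 lower probe was 0 under quantile normalization, 8 with normexp, 0 without the corner and 3 at ratios below 0.55. With the series value table and the refitted normexp below, the count stayed at 1 but was CFL1 A_23_P35820 (-1.04 and -1.02) in place of GSN (-0.97 and -0.93). Of all probes, 272 were lower in the main setting, 227 under quantile normalization, 80 with the value table and 156 without the corner. The member median of -0.32 was -0.077 under quantile normalization, -0.79 with normexp, -0.14 without a filter on dim probes and -0.17 as the median over genes of each gene's mean. By the mean of a gene's measured probes 1 member gene passed 2-fold, against 2 by the brightest probe, and the share over all genes was not counted. Apart from quantile normalization, the scalings kept the member median within the technical spread.

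Normexp moved the median of all measured probes to -0.20 and called 45 of the 29345 probes with a ratio higher and 1056 lower. Refitted after removal of 1 spot that was dimmer than the background around it, a choice made after seeing the data, it gave 128 and 76 over all probes, 0 higher member probes, a member median of -0.25 and a shift of all probes of -0.02. Of 331 member probe values under 13 alternatives, 277 stayed within the technical spread, 54 moved beyond it and 0 called values changed sign. The 277 include values that were fixed in advance. The alternative floor and the other filters on dim probes left every member probe measured on both arrays at its main value. The total is therefore no measure of how robust the values are. Apart from the effects of normexp and the value table on dim probes given below, the cause of the moves was not tested. Signal over background limits what can be seen: the 6 member probes dim on both arrays show no direction, and normexp, which adds an offset of 50, and the value table, which keeps the background, shrink the ratios of dim probes such as FSCN1 A_23_P168532 by construction.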
